A study of Mus musculus with 2 samples.

Results

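The promoters of 1158 autosomal long noncoding RNA (lncRNA) genes were described. They were the genes that GENCODE M21 lists as lincRNA, antisense or processed_transcript, whose start lay more than 2 kb from every protein-coding transcription start and had at least 5 measured CpG cytosines within 1 kb on either side, with known imprinted lncRNA genes left out. Of 8875 autosomal genes of these 3 types, 6798 started far enough from a coding gene, 7 of those were left out as imprinted, and 1158 (17.1%) of the remaining 6791 had enough measured cytosines. The members comprised 744 lincRNA, 287 antisense and 127 processed_transcript genes, and 23106 of the 1782730 cytosines in the whole table lay around their starts.

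The cells were Xmas mESCs, a female embryonic stem cell line of the mouse strain C57/Bl6 with GFP on one X chromosome and mCherry on the other, both under the Hprt promoter. FACS on these reporters separated XX cells from XO cells, in which an X had been lost. Both groups were grown by the study's new culture method in 2i/LIF medium, for 7 passages by the sample labels, whereas the paper's methods give a larger number of passages. Methylation was read by reduced representation bisulfite sequencing (RRBS), which covers mainly CpG-rich fragments, and is given as %mCpG, the percentage of reads that kept a cytosine at a CpG. With 1 library per karyotype, replicate error could not be estimated and no difference was tested. The deposited percentages came without read counts, so the depth behind each value is unknown. DNA methylation does not report RNA markers, so neither the labelled cell type nor the transcription of any lncRNA was checked here. Karyotype, sort and library cannot be told apart with 1 library each.

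lncRNAs are transcripts that are processed like messenger RNAs but have no long open reading frame. Some act on chromatin or scaffold nuclear bodies, some are only the host of a small RNA or microRNA, and for many no function is known. Their promoters have CpG islands less often than those of coding genes. CpG islands are usually unmethylated in mammalian cells, whereas isolated CpGs are usually methylated, and female embryonic stem cells with both X chromosomes active are known for low DNA methylation.

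The sequences below show promoters with large differences among those with at least 10 measured cytosines and the same sign on both strands, each as the 200 bp with most measured cytosines, with measured CpGs in capitals. All are from GRCm38 and are written 5′ to 3′ on the strand of the lncRNA. The first pair had large falls in XX cells, the next pair the largest rises within these limits, and the last one, chosen apart from them, was unmethylated in both karyotypes. 1700018B24Rik is from chr3:48608714-48608913 (minus strand), Gm48607 from chr12:16186008-16186207, Gm11535 from chr11:96177688-96177887, Gm4349 from chr3:95427890-95428089 and 1300014J16Rik from chr12:80115624-80115823 (all plus strand).
1700018B24Rik: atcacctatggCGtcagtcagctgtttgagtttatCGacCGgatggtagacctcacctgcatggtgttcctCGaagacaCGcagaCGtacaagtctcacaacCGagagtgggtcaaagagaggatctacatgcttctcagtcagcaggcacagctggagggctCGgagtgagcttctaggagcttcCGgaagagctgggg
Gm48607: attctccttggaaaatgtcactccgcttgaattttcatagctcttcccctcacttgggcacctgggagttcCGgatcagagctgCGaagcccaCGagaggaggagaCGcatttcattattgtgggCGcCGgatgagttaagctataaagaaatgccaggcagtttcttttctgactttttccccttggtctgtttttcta
Gm11535: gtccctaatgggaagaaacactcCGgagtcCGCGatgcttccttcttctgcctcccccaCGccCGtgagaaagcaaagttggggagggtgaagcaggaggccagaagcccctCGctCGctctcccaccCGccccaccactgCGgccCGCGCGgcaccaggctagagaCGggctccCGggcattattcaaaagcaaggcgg
Gm4349: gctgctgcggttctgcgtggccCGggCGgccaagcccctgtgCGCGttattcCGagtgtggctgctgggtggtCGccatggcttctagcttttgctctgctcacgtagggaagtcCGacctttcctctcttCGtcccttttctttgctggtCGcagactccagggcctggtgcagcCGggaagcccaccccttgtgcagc
1300014J16Rik: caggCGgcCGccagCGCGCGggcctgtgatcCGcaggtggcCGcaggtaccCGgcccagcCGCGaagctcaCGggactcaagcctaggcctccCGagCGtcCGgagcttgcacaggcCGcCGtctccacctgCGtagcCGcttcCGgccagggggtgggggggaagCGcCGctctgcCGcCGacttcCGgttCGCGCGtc

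In the 1700018B24Rik stretch 9 CpGs were measured, with a mean of 13.3% in XX and 53.6% in XO. The Gm48607 stretch had 6 measured CpGs at 13.6% in XX and 46.0% in XO. Both lie downstream of the annotated start, outside coding genes, and have GC contents of 54.5% and 47.5%. The stretches with higher methylation in XX were richer in CpGs. Gm11535 had 14 measured CpGs at 29.1% in XX and 12.0% in XO, and Gm4349 had 10 at 21.4% and 6.32%. The 1300014J16Rik stretch held 27 CpGs, all measured, at 0.807% and 1.43%.

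lncRNA promoters were less methylated in XX than in XO cells. The median over the 1158 promoters was 17.5% in XX (quartiles 8.42 and 29.7) and 28.2% in XO (12.3 and 47.5), and the median difference, XX minus XO, was -8.32 percentage points (quartiles -18.1 and -1.25). The mean of the cytosines was lower in XX at 943 promoters and higher at 213. A difference of at least 20 points downwards was found at 252 promoters (21.8%), against 8.07% of all 18596 autosomal gene starts measured in the same way and 3.29% of 13107 protein-coding starts. Most of the 18596 starts were thus coding, and the share at other noncoding starts was not computed. At least 20 points upwards was found at 3 lncRNA promoters (0.259%), near the 0.301% of all starts and 0.237% of coding starts. At the 631 lncRNA promoters with at least 10 cytosines the median difference was -4.15 and 11.9% were at least 20 points lower. The median difference was negative on each of the 19 autosomes, from -13.9 on chromosome 3 to -3.79 on chromosome 7.

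**Figure D1:**
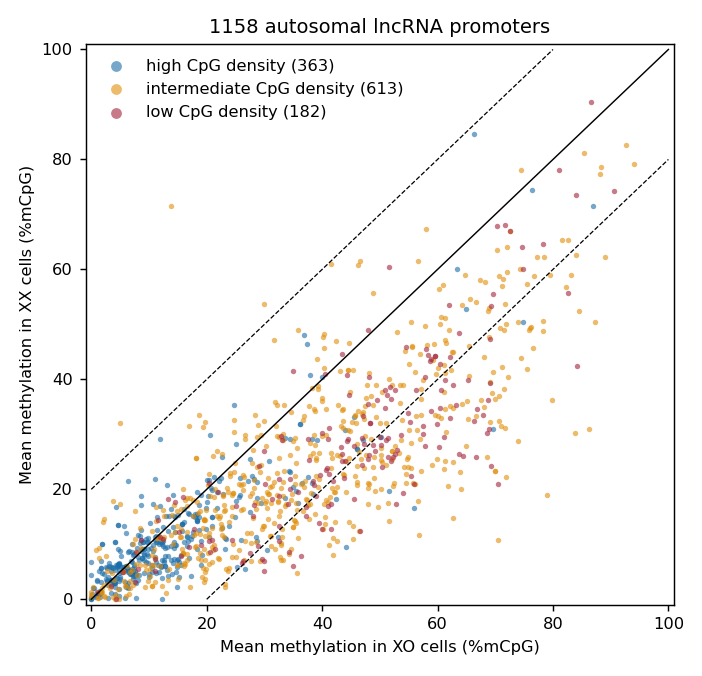
Mean methylation of each of the 1158 lncRNA promoters in XO cells (x axis, %mCpG) and XX cells (y axis, %mCpG), coloured by the CpG density of the 2 kb around the start. Points under the solid diagonal, 943 of them, are lower in XX, and dashed lines mark a difference of 20 points, with 252 promoters on or beyond the lower line and 3 on or beyond the upper.

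Methylation followed the CpG density of the promoter. The 2 kb around each start was called high in CpG density if it held a 500 bp stretch with an observed-to-expected CpG ratio above 0.6 and a GC content above 55%, low if no 500 bp stretch had a ratio above 0.4, and intermediate otherwise. The 363 promoters of high density had medians of 9.09% in XX and 11.3% in XO, with a median difference of -1.59 points, and 10 (2.75%) were at least 20 points lower. The 613 of intermediate density had 21.0% and 35.3%, a difference of -11.8 and 172 (28.1%) at least 20 points lower. The 182 of low density had 26.7% and 46.8%, a difference of -16.8 and 70 (38.5%) at least 20 points lower. The step from high to intermediate density was larger than that from intermediate to low.

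Density also differed between lncRNA and coding promoters. Of the coding promoters measured, 88.0% were of high density, compared with 31.3% of the lncRNA promoters. Over all coding promoters the medians were 7.33% in XX and 8.66% in XO with a difference of -1.27, which leaves a gap of -7.05 points between lncRNA and coding promoters, or -2.99 points where both had at least 10 cytosines. At high density the median difference was -1.59 for lncRNA and -1.04 for coding promoters, and at low density -16.8 and -14.9. At intermediate density it was -11.8 and -6.02, where the XO level was also higher at lncRNA promoters (35.3% against 22.4%). For lncRNA and coding promoters, the shares at least 20 points lower were 2.75% and 0.841% at high density. They were 28.1% and 17.1% at intermediate and 38.5% and 37.1% at low density. The number of measured cytosines moved with these values, with a median of 10 per lncRNA promoter and 52 per coding promoter. Among intermediate promoters with 10 to 19 cytosines the median difference was -11.8 over 209 lncRNA and -6.01 over 467 coding promoters, and with 5 to 9 it was -12.9 over 348 and -8.96 over 512. RRBS itself selected by density, since 85.6% of candidate lncRNA promoters of high density were measured but 21.5% of intermediate and 5.17% of low density.

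**Figure D2:**
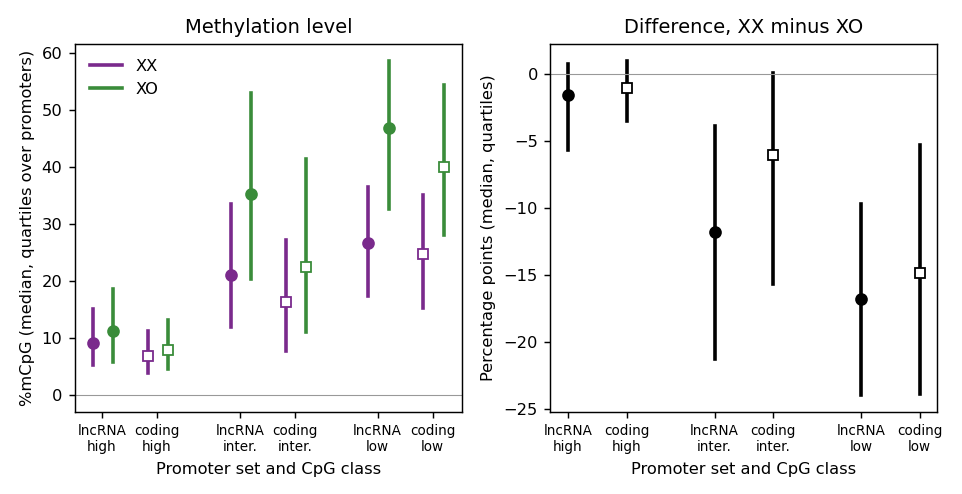
Medians (symbols) and quartiles (bars) over promoters by CpG class, for lncRNA (filled circles) and protein-coding (open squares) promoters. The left panel gives %mCpG in XX and XO and the right panel the difference XX minus XO in percentage points, which runs from -1.59 to -16.8 for lncRNA promoters.

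The gene types differed in part by their density. The median difference was -9.02 at lincRNA, -8.94 at antisense and -4.09 at processed_transcript promoters. Within intermediate density it was -12.0, -11.1 and -11.9 in the same order, and within low density -16.2, -18.2 and -15.8. Of the processed_transcript promoters 67 of 127 were of high density, where their median difference was -0.94, against -1.62 at lincRNA and -2.71 at antisense promoters of that density. At the 140 promoters whose first base lay in a repeat (a soft-masked base of the reference) the median difference was -11.7, and at the 1018 others -7.85. Within intermediate density these values were -13.0 and -11.8. The 211 promoters more than 100 kb from a coding start had the largest median fall of the 4 distance classes, -12.4 against -6.56 at 147 promoters 2 to 5 kb away. The far promoters also had fewer CpGs in the window (median 35 against 45) and a higher XO median (34.5% against 21.3%). Distance was not compared within a density class. The 174 starts inside a coding intron on the opposite strand differed by -12.1, and the 86 inside a coding exon on the opposite strand by -6.11. Among intermediate promoters the values inside and outside coding genes were -11.9 and -11.8.

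Along the promoter, methylation was lowest around the start in both karyotypes. From 1000 to 900 bp upstream XX cells averaged 25.5% and XO cells 39.3%, and from 100 to 200 bp downstream 17.8% and 25.4%. The difference was -13.7 points far upstream and -7.29 in the 100 bp before the start, and XX was below XO in each of the 20 steps of 100 bp. At coding promoters the difference was -7.06 and -1.76 in the same steps. At low-density lncRNA promoters XO cells had 39.0% in the 100 bp before the start (38 promoters) and 48.2% in the farthest step upstream (20 promoters). XX cells had 23.4% and 25.9% in these steps. From 600 to 500 bp upstream (21 promoters) XX cells had 37.0% and XO cells 57.3%, so the size of the dip depends on the step compared. Each step rests on different promoters, from 122 to 448 of them over all lncRNA promoters.

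**Figure D3:**
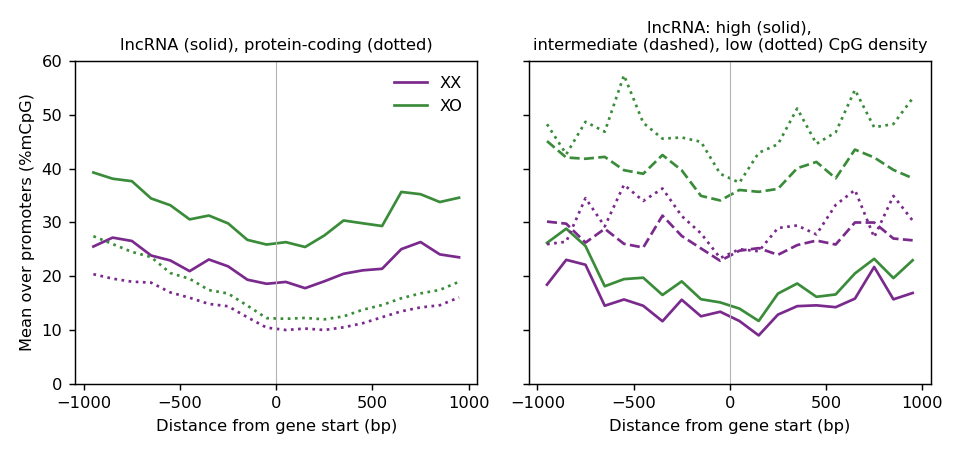
Mean over promoters of the mean %mCpG in 100 bp steps by distance from the gene start (bp, negative upstream), in XX (purple) and XO (green). On the left are lncRNA (solid) and protein-coding (dotted) promoters and on the right lncRNA promoters by CpG class. XX lies below XO in every step for lncRNA promoters, and the lowest XX mean, 17.8%, is just downstream of the start.

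The strands of a CpG are sequenced separately, which allowed a check within each library, though not a replicate of the cells. Cytosines were averaged over the window by strand and not paired by CpG. The gap between strands can therefore also hold differences between positions. Of the members, 877 had at least 3 measured cytosines on each strand. The XX minus XO differences of the strands differed by a median of 7.70 points in size (SD of the signed gap 14.2), with Pearson's r = 0.405 over these promoters, which share both libraries. On the reverse strand 659 of the 877 (75.1%) were lower in XX, whatever the forward strand showed. Among 174 promoters at least 20 points lower on the forward strand, 160 (92.0%) were lower on the reverse strand, where XX cells averaged 26.1% and XO cells 44.0%, and 75 were again at least 20 points lower. Among 6 at least 20 points higher on the forward strand, 4 were higher on the reverse strand, 0 of them by 20 points, and the reverse strand means were 25.1% in both XX and XO. Of the 220 promoters higher on the forward strand by any amount, 149 were lower on the reverse strand.

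**Figure D4:**
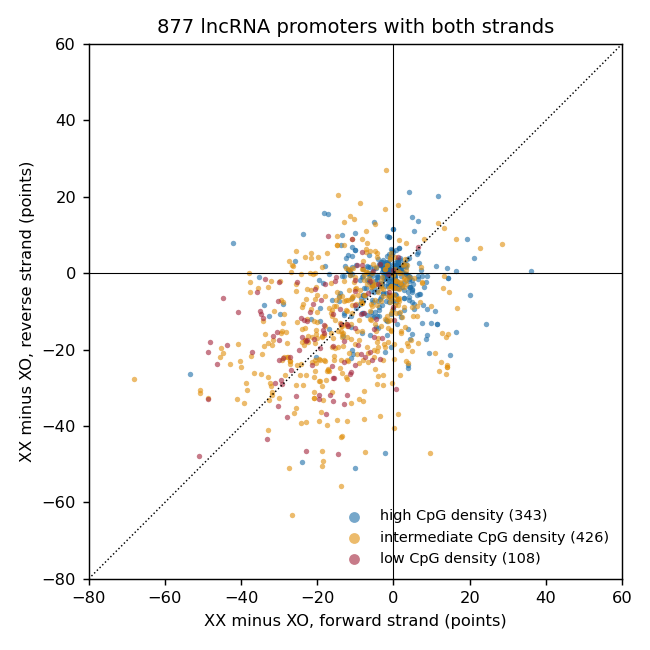
Difference XX minus XO in percentage points on the forward (x axis) and reverse (y axis) strand for 877 lncRNA promoters with at least 3 measured cytosines on each, coloured by CpG density. Promoters far to the left of 0 mostly lie under 0 on the y axis (160 of the 174 at -20 or less), while those far to the right scatter around 0.

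XX cells kept about the same share of methylation at lncRNA promoters of moderate and of strong methylation. Promoters were chosen by an XO level of at least 20% on the forward strand and then read on the reverse strand, so that the values that chose them are not those reported. Over 448 such promoters the reverse strand had 24.7% in XX and 39.5% in XO, a ratio of 0.625. The ratio was 0.617, 0.625 and 0.635 for forward XO levels of 20 to 40, 40 to 60 and at least 60%. Below 20% it was 0.728 over 429 promoters. By density it was 0.801 over 68 promoters of high, 0.607 over 286 of intermediate and 0.610 over 94 of low density. Coding promoters chosen in the same way had 0.844, 0.645 and 0.563. For forward XO levels of 20 to 40, 40 to 60 and at least 60%, coding promoters had 0.775, 0.663 and 0.664. By gene type the ratio was 0.615 at lincRNA, 0.639 at antisense and 0.655 at processed_transcript promoters.

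The largest falls among promoters with at least 10 cytosines and the same sign on both strands were at genes known only by annotation names. 1700018B24Rik, a lincRNA 1146362 bp from the nearest coding start (nearest coding gene Pcdh18), had 16.7% in XX and 56.0% in XO, with 19 of 20 cytosines lower in XX. On the forward strand its values were 26.3% and 50.3% and on the reverse strand 10.3% and 59.8%. Gm14329 on chromosome 6, whose start lies in a coding exon on the opposite strand, had 30.9% and 69.6%, and all 22 of its cytosines were lower in XX. Gm48607, 368851 bp from the nearest coding start (nearest coding gene Trib2), had 14.2% and 51.5%, with 13 of 13 cytosines lower. Gm13201 had 9.58% in XX and 44.2% in XO. The other 4 (AC168212.1, Gm20412, Gm43685 and Gm48747) had differences from -37.8 to -34.3 points. Of these 8 promoters, 5 were of intermediate and 3 of high density, and 3 start inside a coding exon.

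The largest rises were smaller than the largest falls. Gm11535 had the largest rise by the same rule, with 29.1% in XX and 12.0% in XO, and 1 of 14 cytosines was lower in XX. It is a lincRNA 16765 bp from the nearest coding start (nearest coding gene the homeobox gene Hoxb13). Gm4349 had 21.4% and 6.32%, with 0 of 10 cytosines lower. Gm16170, 5591 bp from the nearest coding start (nearest coding gene the immunity GTPase gene Irgm1), had 17.8% and 3.77%. At Gm45889 all 20 cytosines were at least as high in XX, with means of 14.5% and 2.14%. Sfta3-ps, 5679 bp from the nearest coding start (nearest coding gene the lung and thyroid regulator Nkx2-1), had 48.1% and 36.8%. Its difference, however, was 36.2 points on the forward strand and 0.60 on the reverse. The other 3 (Gm26568, D130017N08Rik and 1700012C14Rik) had differences from 9.28 to 12.6 points. Of 622 promoters with at least 10 cytosines and at least 3 on each strand, 324 were lower on both strands and 60 higher on both. The 3 promoters at least 20 points higher (Gm11899, Gm15409 and Gm46515) had 5 cytosines each, and Gm11899 and Gm46515 had none on the reverse strand.

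Few promoters chosen for strong methylation in XO were as strongly methylated in XX. Among 29 with at least 10 cytosines and at least 60% in XO, the median level was 45.7% in XX against 69.6% in XO, 0 were above XO in XX, and 2 had at least 60% in XX. The XO value both chose these promoters and was compared, so the choice itself can widen the gap. With at least 60% in XO on the forward strand as the choice, 75 promoters had 38.9% in XX and 61.3% in XO on the reverse strand. Among the 4 of the 29 that were closest to their XO level, those after the closest were Gm35608, Gm13393 and Gm28989, with differences from -11.9 to -14.9. Gm28989 had 79.1% in XX and 94.0% in XO. Gm35608 had 58.8% and 70.7%, and Gm13393 had 49.0% and 62.0%. At the other end, 76 promoters (6.56%) were under 5% in both karyotypes. 1300014J16Rik, a high-density promoter 2850 bp from the nearest coding start (nearest coding gene Zfp36l1), had the most cytosines of these, 155, with 3.02% in XX and 4.18% in XO.

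Promoters of better known lncRNAs were described by list. Of 27 pluripotency-associated transcripts of the 3 types, mostly the Platr genes named for their association with the pluripotent state, 8 were measured. Of these 8, 1 (12.5%) was at least 20 points lower in XX, against 21.8% of all members and 28.1% of intermediate-density members. The median difference of the 8 was -3.34, against -8.32 over all members and -11.8 over members of intermediate density, the class of most of this list. Platr31 had 23.9% in XX and 55.4% in XO over 7 cytosines, with differences of -32.0 and -31.2 on the forward and reverse strands. Platr12 had 7.60% and 25.1%, and its strands differed by -18.2 and -16.2. Platr8 (2.04% and 1.79%) and Platr22 (4.80% and 3.60%) had little methylation in either karyotype. Platr19 had 34.6% in XX and 38.6% in XO, and Lncenc1, an lncRNA described in naive embryonic stem cells, 11.9% and 18.8%. Platr29, named after its values were seen, was higher in XX, with 14.0% and 2.08% over 6 cytosines. In all, 5 of the 8 promoters were lower and 3 higher in XX, 7 of them being of intermediate density.

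Host genes of small RNAs were mostly of low methylation. Of 16 small nucleolar RNA host genes of the 3 types, 7 start within 2 kb of a coding start and 8 were measured, all of high density, with a median difference of -1.10 and 0 at least 20 points lower. Dancr, with 95 cytosines, had 2.93% in XX and 6.39% in XO. Snhg6 and Snhg8 had 2.42% and 3.15% in XX and 6.24% and 5.87% in XO. Snhg5 went the other way, with 5.13% and 1.40%. Snhg17 was more methylated than the rest and level between karyotypes, at 28.2% and 25.1%. These counts stand beside a median difference of -1.59 and a share of 2.75% at least 20 points lower over all high-density members. Among 10 microRNA hosts, 5 were measured, 4 of them of high density, with a median difference of -3.78 and 0 at least 20 points lower. Mir155hg, which hosts miR-155, had 6.34% and 4.64% over 127 cytosines, and Mir17hg, which hosts the miR-17 cluster, 4.49% and 8.28% over 78. Mir142hg, the host of the blood-cell microRNA miR-142, was the only one of intermediate density, with 26.6% in XX and 39.4% in XO over 6 cytosines.

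Studied regulatory lncRNAs were mostly of high density (6 of 7), where 2.75% of all members were at least 20 points lower. Of 22 such genes of the 3 types, 8 start within 2 kb of a coding start and 7 were measured, with a median difference of -3.66 and 0 at least 20 points lower. Malat1, an abundant nuclear RNA of splicing speckles, had 5.97% in XX and 3.12% in XO, and its neighbour Neat1, the scaffold of paraspeckles, 10.9% and 23.3%. The Neat1 difference was -0.62 points on the forward strand and -19.4 on the reverse, so the strands did not give the same size. Miat had 10.7% and 8.55%, Pvt1 next to Myc 19.1% and 22.8%, and Trp53cor1, also known as lincRNA-p21, 5.13% and 5.53%. All 7 had XX levels under 20%.

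**Figure D5:**
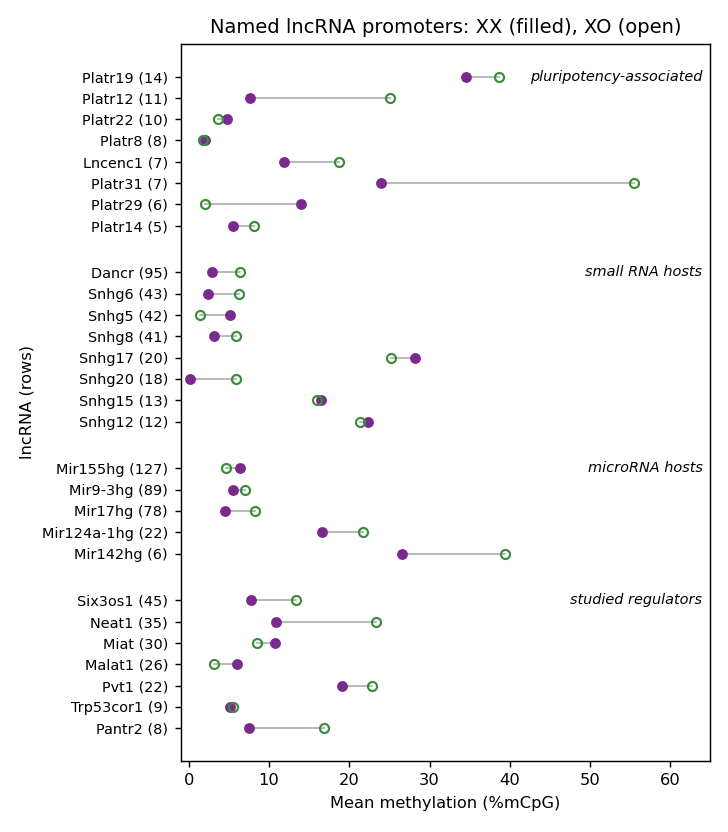
Mean %mCpG in XX (filled) and XO (open) at each measured promoter of 4 lists of named lncRNAs, with the number of measured cytosines in brackets. Most host genes and regulators lie under 30% in both karyotypes, and Platr31 has the widest gap, 23.9% against 55.4%.

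Opposite-strand transcripts, named after the coding gene they oppose, had the largest median difference of the 5 lists. Their promoters spanned high, intermediate and low density, whereas the host and regulator lists were mostly of high density, so the lists were not matched for density. Of 281 such genes of the 3 types, 138 start within 2 kb of a coding start and 35 were measured. Their medians were 18.1% in XX and 33.5% in XO with a median difference of -11.4, and 8 (22.9%) were at least 20 points lower, close to the 21.8% of all members. For 29 of them the promoter of the named coding gene was measured as well. At the lncRNA promoters the medians were 20.3% in XX and 35.0% in XO and at their partners 7.61% and 8.98%, with median differences of -11.4 and -0.38. The lncRNA promoter was the more methylated in XO in 24 of 29 pairs, which were not matched for density. The starts of a pair lay from 3250 bp (Hand2os1) to 307869 bp (Grip1os2) apart. Hand2os1, chosen as an example after its values were seen, had 9.90% and 21.3% and Hand2, a heart and limb transcription factor gene whose start is 3250 bp away, 0.956% and 0.455%. The Hand2os1 difference was -23.3 points on the forward strand and 4.31 on the reverse, so the strands had opposite signs. Six3os1 went against the higher XO level at lncRNA promoters, with 7.81% in XX and 13.3% in XO. Its partner Six3, an eye and forebrain regulator gene, had 44.4% and 32.1%. Epb41l4aos, Rab10os, Nphs1os, Fbxl12os and Hoxb3os, the other members of the list with most cytosines, were under 12% in both karyotypes. Rapgef4os2 and Rapgef4os3 share a partner.

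In most pairs the lncRNA promoter had a more negative difference than the nearest coding promoter, though least often at high density. A nearest coding gene with a measured promoter was found for 875 lncRNA promoters, over 755 coding promoters. The lncRNA promoters had a median difference of -7.90 and their neighbours -0.94, and the lncRNA difference was the more negative in 631 pairs. At least 20 points lower were 176 lncRNA promoters and 17 times the coding neighbour, and in 4 pairs both were. The share at least 20 points lower was 21.8% over all members, 3.29% over coding starts and 8.07% over all autosomal starts. Whether the overlap of 4 pairs differs from what the separate counts would give was not tested. Pearson's r between the 2 differences was 0.0446 over the 875 pairs, which share both libraries and in part the same coding promoter. By density of the lncRNA promoter the median differences of the pair were -1.74 and -0.88 at high, -11.1 and -0.89 at intermediate and -17.0 and -1.33 at low density. The lncRNA difference was the more negative in 146 of 270, 360 of 457 and 125 of 148 pairs in the same order. Pairs were sorted by the density of the lncRNA promoter and not of its neighbour, so the sorting acts on the lncRNA side only.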

How the data were processed

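RRBS libraries were made with the NuGEN Ovation Methylseq kit from FACS-sorted XX and XO cells. The submitters' processing notes name bcl2fastq, Bismark and build mm10 (GRCm38). Versions, the coverage minimum and the tool that wrote the table are not given in the sources used here. The authors deposited the percent of methylated reads at each CpG cytosine, strands apart, and every row was kept, including 50 autosomal ones on no CpG of the reference. There were 0 columns of other samples.

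Each promoter had the mean over its rows (cytosines; at least 5, within 1 kb of the annotated start). Every transcript start of a protein-coding gene counted for the distance of 2 kb and for the distance to the nearest coding start. The nearest coding gene was the one whose annotated gene start was nearest, so that distance can belong to another start or gene. Lists were described by counts and medians, without tests, since there was 1 library per karyotype, and no interval was computed because depth is unknown. Windows of 80 members overlapped another member's, so these share cytosines. The members and lists were chosen with earlier results of these data known. Named genes were the 8 largest falls and 8 largest rises with at least 10 rows and the same sign on both strands, the 4 promoters with at least 60% in XO closest to it in XX, and up to 6 of each list by number of rows. One of these promoters and its sequence are not reported here. Alternatives were other row minimums, window widths, summaries and thresholds. The code was tested on simulated data. Python 3.11.15, numpy 2.4.6, pandas 2.3.3 and matplotlib 3.10.9 were used.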

Additional observations from a re-analysis of the deposited data

How the results depend on the processing

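Of 61 comparisons of a value with an alternative, 49 stayed within 1.5 times of it, 12 moved further and 0 changed sign. With at least 10 rows per promoter (631 promoters) the XO median was 17.2%, the median difference -4.15 points, the share at least 20 points lower 11.9%, the share as much higher 0.0%, and the gap to coding promoters -2.99 points. That set holds fewer CpG-poor promoters. The share at least 20 points higher was 0.565% with 3 rows, 0.705% within 500 bp of the start and 1.30% with the median over rows. At a threshold of 10 points 45.3% were lower and 2.07% higher, and at 30 points 7.60% and 0.0864%. The share of methylation kept ranged from 0.629 to 0.639. No paired analysis was possible because each karyotype had 1 library. The depth is unknown, so a percentage that rests on few reads cannot be told from one that rests on many, and the differences of single promoters carry no error beyond the scatter between strands.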
